A study of Mus musculus with 6 samples.

Results

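The derlins are a family of 3 genes, Derl1, Derl2 and Derl3, and they were followed here in liver mRNA from mice that lack SURF4 in hepatocytes. They were found by symbol in the table of transcript abundances, where 17 of 116748 transcripts carry a derlin symbol: 2 of Derl1, 7 of Derl2 and 8 of Derl3. After summing by symbol they were 3 of 35540 genes, and all 3 were among the 14189 tested, whose mean over the mice reached 0.1 TPM (a transcript abundance corrected for length and scaled to the same total in each mouse). The members were chosen by their TPM in the 2 genotypes, Derl3 being already known to differ between them in these mice, so the genotype values of the members are given as a description, without a test.

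Derlins are membrane proteins of the endoplasmic reticulum (ER) that resemble rhomboid proteases but have no catalytic site. They belong to ER-associated degradation (ERAD), in which a misfolded protein is recognized in the ER, moved back across its membrane next to the ubiquitin ligase SYVN1 (HRD1) and its partner SEL1L, and pulled out by the ATPase VCP for destruction by the proteasome. Derlin-1 and derlin-2 are found in most tissues, whereas derlin-3 is best known from cells that secrete much protein, such as pancreatic acinar and plasma cells, and its gene is a known target of the unfolded protein response.

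The 6 mice were all Surf4 fl/fl, on the C57BL/6 J background and fasted overnight, with no age given: 3 were Alb-Cre+, and 3 littermates that were Alb-Cre- served as controls. All 6 mice carry loxP sites around exon 2 of both Surf4 alleles, and the groups differ in a Cre transgene that the albumin promoter switches on in hepatocytes, so the other cells of the liver keep Surf4. Each genotype had a female mouse as replicate 2 and male mice as replicates 1 and 3, with a single library of whole liver per mouse. The targeted gene had 59.0, 71.8 and 54.3 TPM in Alb-Cre+ mice and 92.5, 94.5 and 92.5 TPM in Alb-Cre- mice, which counts remaining transcripts that lack exon 2 as well. Since TPM do not give read numbers, the depth of each library is unknown; 10059 to 11125 genes had at least 1 TPM in a mouse. As a guide to the reads behind the members, the authors' mean normalized count over all 6 mice was 21504 for Derl1, 8817 for Derl2 and 778 for Derl3.

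Derl3 was the member with different levels in the genotypes. Its transcripts summed to 5.62, 6.25 and 14.4 TPM in Alb-Cre+ replicates 1, 2 and 3, and to 0.977, 0.590 and 0.822 TPM in the Alb-Cre- replicates. Every Alb-Cre+ mouse lay above every control, and replicate 3 stood well above the other Alb-Cre+ mice. The means were 8.74 TPM ± 4.88 (SD, n = 3) against 0.796 TPM ± 0.195 (SD, n = 3), with a ratio of 11.0, and the difference was 3.19 (SE 0.46) on the scale of log2(TPM + 0.1). Without Alb-Cre+ replicate 3 it was 2.77, and over all omissions of a single mouse it was 2.77 to 3.44. In bulk liver, fewer cells of a type and less RNA per cell cannot be told apart. Alb-Cre+ replicate 3 also had the lowest sum of hepatocyte markers (59633 TPM, against 76830 and 81494 TPM in the other Alb-Cre+ mice and 80935 to 88614 TPM in controls). Most of that gap was Alb, at 38059 TPM in this mouse against 55647 and 53874 TPM in the other Alb-Cre+ mice, while Hnf4a (265 TPM) lay between theirs (251 and 356 TPM), and so did Serpina1a. The part of these differences in the Derl3 value was not tested.

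Derl1, which encodes the family member first linked to retrotranslocation, was measured at 51.3, 56.4 and 48.8 TPM in Alb-Cre+ mice and at 62.8, 68.0 and 51.2 TPM in Alb-Cre- mice. The groups overlapped, with control replicate 3 inside the range of the Alb-Cre+ mice, although within each pair of mice with the same replicate number the Alb-Cre+ mouse was lower (log2 differences of -0.29, -0.27 and -0.067). The means were 52.2 TPM ± 3.84 (SD, n = 3) and 60.6 TPM ± 8.61 (SD, n = 3), and the log2 difference was -0.21 (SE 0.14, or 0.071 with the replicate number as a block). With the mice scaled by the median ratio of their genes, Alb-Cre+ replicate 3 was above control replicate 3 (57.3 against 54.6 TPM). The SE of the Derl1 difference with the block was then 0.15. Derl2, whose product acts in the same ligase complex, was measured at 52.8, 56.6 and 51.9 TPM in Alb-Cre+ mice and at 56.0, 50.8 and 70.1 TPM in Alb-Cre- mice. Here control replicate 2 lay below and control replicate 3 above all Alb-Cre+ mice, and the pairs differed in sign (-0.084, 0.16 and -0.43). The means were 53.8 TPM ± 2.52 (SD, n = 3) and 59.0 TPM ± 9.99 (SD, n = 3), and the log2 difference of -0.12 (SE 0.14) became 0.011 without control replicate 3. Of the 14189 genes, 310 (2.18%) had Alb-Cre+ values that were all above those of the controls and 385 (2.71%) had values all below; Derl3 was the 1 member of the first kind, and the rule that chose it used this contrast. By limma, 0 genes (0%) and hence 0 of 3 members passed an adjusted p of 0.01. Surf4, the targeted gene, did not pass it either (unadjusted p = 0.00269 by limma), although all its Alb-Cre+ values lay below the controls. A count of 0 therefore does not show that levels were equal. At an unadjusted p of 0.05, limma counted 114 genes as higher (0.803%) and 136 as lower (0.958%), or 323 (2.28%) and 343 (2.42%) with the replicate block.

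**Figure D1:**
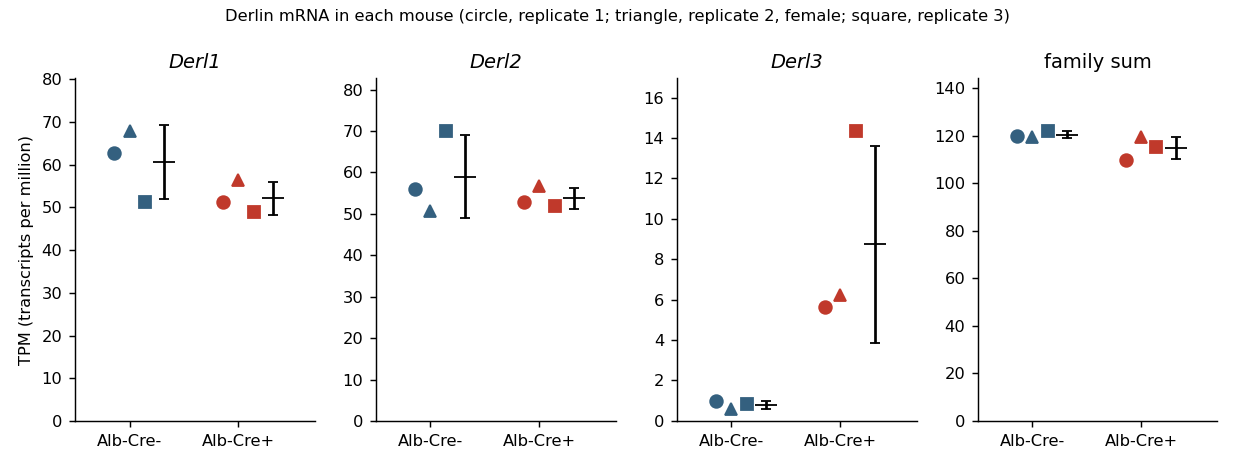
TPM of Derl1, Derl2, Derl3 and their sum in each mouse (vertical axes, linear from 0 and separate for each panel), with Alb-Cre- mice in blue and Alb-Cre+ mice in red; circles, triangles and squares are replicates 1, 2 and 3, and the bars give the mean ± SD of 3 mice. Derl3 lies between 5.62 and 14.4 TPM in Alb-Cre+ mice and under 1 TPM in controls, while Derl1 and Derl2 overlap between the genotypes.

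The sum of the family showed no gain. It was 109.8, 119.2 and 115.0 TPM in Alb-Cre+ mice and 119.8, 119.3 and 122.1 TPM in Alb-Cre- mice, so the highest Alb-Cre+ mouse was just under the lowest control. The means were 114.7 TPM ± 4.73 (SD, n = 3) and 120.4 TPM ± 1.47 (SD, n = 3), which is a log2 difference of -0.07 (SE 0.04). The mean of Derl3 was 7.95 TPM higher in Alb-Cre+ mice, whereas the means of Derl1 and Derl2 were lower, with differences of -8.46 and -5.18 TPM, each smaller than the SD of the controls. After the mice were scaled by the median ratio of their genes, the sums of the groups overlapped (98.1 to 135.0 TPM against 110.0 to 130.3 TPM), as did Derl1 and Derl2, while Derl3 still had 5.14 to 16.9 TPM against 0.544 to 0.977 TPM.

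The make-up of the family differed more than its sum. Derl3 contributed 5.12%, 5.24% and 12.5% of derlin TPM in Alb-Cre+ mice and 0.816%, 0.494% and 0.673% in Alb-Cre- mice. Derl1 exceeded Derl3 by a factor of 9.13, 9.02 and 3.40 in Alb-Cre+ mice and of 64.3, 115 and 62.2 in controls, so Derl3 remained the least abundant member in every mouse. Among the 14189 genes ordered by mean TPM, Derl3 stood at place 10962 in controls and 5510 in Alb-Cre+ mice. The other members kept their places near the top, 1497 and 1637 for Derl1 and 1526 and 1594 for Derl2.

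Derl1 and Derl2 could not be ordered by level. The log2 difference of Derl2 minus Derl1 within a mouse was 0.04, 0.01 and 0.09 in Alb-Cre+ mice and -0.16, -0.42 and 0.45 in Alb-Cre- mice. Its mean was 0.00 ± 0.29 (SD, n = 6), with p = 1 in a two-sided exact permutation test over sign flips that can give no p under 0.03125. The controls differed in which member was higher, and the Alb-Cre+ mice had nearly equal levels. Over the 6 mice the correlation of Derl1 with Derl2 was -0.31, and that of their deviations from the genotype means was -0.74; these describe 6 libraries only, with TPM tied to a fixed total.

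No difference between the sexes was called among the members. Both females were replicate 2, so sex and replicate number cannot be told apart here. The labels do not say that the replicate numbers pair the mice. Mean TPM in the 2 female and 4 male mice was 62.2 and 53.5 for Derl1, 53.7 and 57.7 for Derl2, and 3.42 and 5.45 for Derl3. In limma, fitted with genotype and sex over 14189 genes, the female minus male log2 differences were 0.22 (SE 0.12, adjusted p = 0.291) for Derl1, -0.09 (SE 0.15, adjusted p = 0.703) for Derl2 and -0.52 (SE 0.37, adjusted p = 0.387) for Derl3. In the same fit 73 genes (0.514%) passed an adjusted p of 0.01, and 3 did without Alb-Cre+ replicate 2, 3 without Alb-Cre- replicate 2, 43 without Alb-Cre+ replicate 1 and 32 without Alb-Cre+ replicate 3. After median-of-ratios scaling the difference was -0.070 for Derl1, which turns its sign, -0.38 for Derl2 and -0.80 for Derl3, and none was called.

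Most of the Derl3 signal came from its full-length coding transcript. In GRCm38 with the GENCODE M21 annotation, Derl3 lies on the plus strand of chromosome 10 from 75893413 to 75895941, and Derl3-201 has 7 exons, 1321 bases and an open reading frame of 228 codons. Derl3-201 had 4.65, 5.14 and 11.7 TPM in Alb-Cre+ mice and 0.860, 0.322 and 0.760 TPM in Alb-Cre- mice, without overlap. It held 82.1% of the mean Derl3 TPM in Alb-Cre+ mice and 81.3% in controls, and 82.2% of the difference between the means. Derl3-202, also coding, differs near the start of exon 2, where it joins exon 1 to a position 3 bases further on and so has 227 codons. It had 0.242, 0.226 and 1.45 TPM in Alb-Cre+ mice and 0.0602, 0.127 and 0 TPM in controls, again without overlap, and its share of the gene was 7.33% and 7.84%.

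The remaining Derl3 transcripts are annotated as non-coding. Derl3-203 leaves out exons 3 to 5 of Derl3-201, 364 bases in all, which does not keep the reading frame (remainder 1 after division by 3). It had 0.378, 0.272 and 0.563 TPM in Alb-Cre+ mice and 0.0564, 0.102 and 0.0624 TPM in controls, without overlap. With a ratio of means of 5.49, against 11.1 for Derl3-201, its share of Derl3 was 4.62% in Alb-Cre+ mice and 9.24% in controls. The spread of these shares was wide where the gene was low, since Derl3-201 made up 88.1%, 54.6% and 92.4% in the controls but 82.8%, 82.2% and 81.8% in Alb-Cre+ mice. Derl3-204, which retains an intron, had 0.254, 0.148 and 0.381 TPM in Alb-Cre+ mice and 0, 0.0389 and 0 TPM in controls. Derl3-205 and Derl3-206 were above 0 in Alb-Cre+ replicate 2 alone (0.0965 and 0.274 TPM), Derl3-207 in Alb-Cre+ replicate 3 alone (0.221 TPM) and Derl3-208 in Alb-Cre+ replicates 1 and 2 (0.0961 and 0.0927 TPM); all 4 were listed at 0 in every control. The junctions that set the first 3 transcripts apart are shown with 15 bases on each side, as the RNA reads 5′ to 3′ in T for U, and capitals mark the first 3 bases after the junction.
Derl3-201, exon 1 to exon 2 (chr10:75893517 to chr10:75893619): accacggccgcagtgCAGctggagctcctc
Derl3-202, exon 1 to exon 2 (chr10:75893517 to chr10:75893622): accacggccgcagtgCTGgagctcctcagc
Derl3-203, exon 2 to exon 3 (chr10:75893684 to chr10:75895039): ttccggaagttccagGGAtccttgtgggcc

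**Figure D2:**
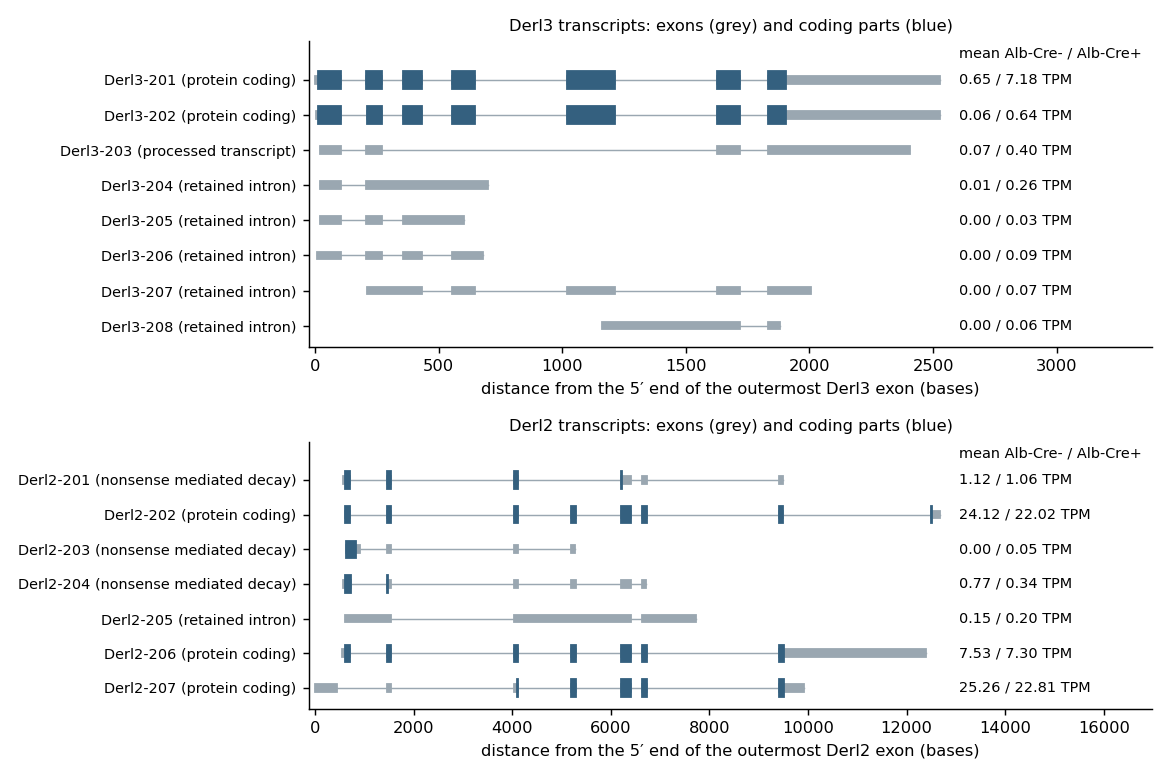
Exons (grey) and coding parts (blue) of the Derl3 and Derl2 transcripts, drawn to scale by distance in bases from the outermost 5′ end of each gene (horizontal axis), with the mean TPM of 3 Alb-Cre- and 3 Alb-Cre+ mice at the right. Among the Derl3 transcripts only Derl3-201 and Derl3-202 have a coding part, and Derl3-201 has the highest mean in each genotype.

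Derl2 and Derl1 were made up of the same main transcripts in each genotype. Derl2 lies on the minus strand of chromosome 11 (71007164 to 71019841) and was shared among 3 coding transcripts. Derl2-202 had 23.2, 22.4 and 20.5 TPM in Alb-Cre+ mice and 21.5, 22.0 and 28.9 TPM in controls, and Derl2-206, which also has 239 codons but ends in a longer last exon, had 6.26 to 8.25 TPM and 6.50 to 8.18 TPM. Derl2-207 starts at another exon and has 165 codons. It had 20.5, 24.3 and 23.6 TPM in Alb-Cre+ mice and 24.3, 20.7 and 30.8 TPM in controls, which was 42.4% and 42.9% of Derl2. The first exon of Derl2-207 shares 231 bases (71019611 to 71019841) with exons of Mis12 on the other strand, and since the strandedness of the libraries is not given in the sources used here, reads there cannot be assigned with certainty; Mis12 itself had a mean of 5.60 TPM. Derl2-204, annotated for nonsense-mediated decay, was the minor Derl2 transcript without overlap, with 0.255, 0.465 and 0.301 TPM in Alb-Cre+ mice and 0.725, 0.530 and 1.06 TPM in controls. Derl1, on the minus strand of chromosome 15 (57869502 to 57892448), was nearly all Derl1-201, a transcript of 8 exons and 251 codons that held 98.9% of the gene in Alb-Cre+ mice and 98.1% in controls. Of the stretches of 31 bases in its transcripts, Derl1 shared 8.60% on the same strand with another annotated gene, Gm35638. Derl2 shared 0.806% with 650 genes on the same strand and 3.35% with 679 genes on the opposite strand. Derl3 shared none with any other annotated gene.

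**Figure D3:**
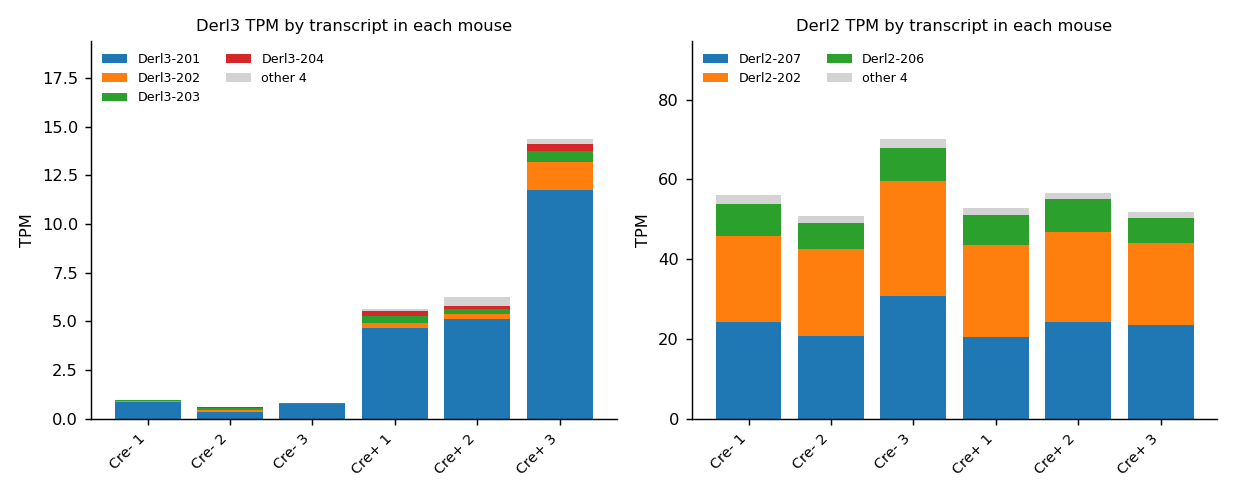
TPM of Derl3 (left) and Derl2 (right) in each of the 6 mice, with bars stacked by transcript and linear axes from 0; grey holds the 4 least abundant transcripts of each gene. Derl3-201 (blue, left) makes up most of every bar in Alb-Cre+ mice, and the Derl2 bars keep a similar division between Derl2-202, Derl2-207 and Derl2-206.

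The 250 bases before the RefSeq start site of Derl3 hold an ER stress response element (ERSE), a motif in which NF-Y binds CCAAT and ATF6 or XBP1 binds CCACG after a spacer. The RefSeq promoter table (GRCm38.p6) had windows for 2 of the 3 derlins, Derl3 and Derl2, and the Derl3 window lies at chr10:75893148-75893397 on the plus strand with its start site at 75893398. It is shown 5′ to 3′, and capitals mark the fixed letters of the ERSE, which reads in the direction opposite to the gene.
Derl3 promoter: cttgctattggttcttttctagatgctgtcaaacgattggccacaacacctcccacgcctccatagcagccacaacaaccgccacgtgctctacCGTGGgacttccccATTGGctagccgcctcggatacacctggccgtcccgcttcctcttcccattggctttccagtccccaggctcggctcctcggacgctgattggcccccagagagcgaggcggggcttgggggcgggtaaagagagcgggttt

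The motif was searched on both strands as CCAAT, then 9 bases of any kind, then CCACG, and 37 of 32851 windows (0.113%) held it. The Derl3 match covers chr10:75893242-75893260, and its last base is 138 bases before the start site. The same window has 5 CCAAT and 3 CCACG pentamers on either strand, including those of the ERSE. Neither of the 2 Derl2 windows, before start sites 71019841 and 71019303, contained an ERSE, an ERSE-II (ATTGG, any base, CCACG) or a UPRE (TGACGTGG), although the second has 5 CCAAT pentamers and 1 CCACG. A match of letters is a description of the window and not a binding measurement.

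Of the genes tested, 19 had an ERSE in such a window, Derl3 and 18 others; this grouping was made after values had been seen and has no test. Among the 18, 17 had a positive and 1 had a negative genotype difference, with a median log2 difference of 0.36. Over all 10631 tested genes that had a window, 5267 were positive and 5364 negative, with a median of -0.00. The other motifs did not show this excess of positive differences. The 6 tested genes with an ERSE-II had 3 positive and 3 negative differences (median -0.086). The 96 with a UPRE had 42 positive and 54 negative (median -0.025). Neither of these groups had a gene under an unadjusted p of 0.05 in limma without the replicate block. With the block, limma counted 4 of the 96 UPRE genes as higher at that threshold (4.17%) and 2 as lower (2.08%). Among all windowed genes these shares were 2.1% and 2.31%, and no ERSE-II gene was counted. Limma gave 3 of the 18 an unadjusted p under 0.05, all higher in Alb-Cre+ mice (78 of the 10631 windowed genes, or 0.734%, were counted as higher), and none passed an adjusted p of 0.01. Adding the replicate block counted 6 of the 18 as higher, against 223 of 10631 (2.1%), the additional genes being Hspa5, Acnat2 and Pdia6. The 3 without the block were Ero1b, an oxidase that drives disulfide bond formation (20.0 TPM ± 2.42 against 12.4 TPM ± 2.46, SD, n = 3 each), Acacb, an acetyl-CoA carboxylase (5.82 TPM ± 0.857 against 3.68 TPM ± 0.438), and Hsp90b1, the ER member of the HSP90 chaperones (359 TPM ± 60.8 against 272 TPM ± 19.4). Of the 18 genes, 9 belong to the XBP1 and ATF6 target list described next, and Alg12 and Creld2 share a match between their start sites, as their windows overlap. Xlr3a and Xlr3b are close copies of each other, and reads may be split between them. Zfp57, at 0.0434 and 0.185 TPM, was the gene with the negative difference and passed the filter of 0.1 TPM only through the controls. Outside the lists the 9 other ERSE genes had a median of 0.14. The ERSE of Derl3 is set out with those of the 4 listed ER genes that had the largest differences, each read in the direction from CCAAT to CCACG, with the fixed letters in capitals (Hsp90b1 has 2 matches, of which the one nearer its start site is shown).
Derl3 (chr10:75893242-75893260, minus strand): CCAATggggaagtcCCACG
Ero1b (chr13:12565682-12565700, minus strand): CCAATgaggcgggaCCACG
Pdia6 (chr12:17266491-17266509, plus strand): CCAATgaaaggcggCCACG
Hspa5 (chr2:34772025-34772043, plus strand): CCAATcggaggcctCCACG
Hsp90b1 (chr10:86705533-86705551, plus strand): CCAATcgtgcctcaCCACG

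The other genes of the pathway differed far less than Derl3. Of 40 ERAD partners, 7 had a positive and 33 a negative difference, with a median log2 difference of -0.07 against -0.00 for all genes tested. Limma gave 1 of the 40 an unadjusted p under 0.05, lower in Alb-Cre+ mice, against 0.958% of all genes, and 4 of the 40 had Alb-Cre+ values all below those of the controls, against 2.71%. The ligase Syvn1 had 23.0, 25.1 and 16.8 TPM in Alb-Cre+ mice and 19.9, 13.5 and 17.9 TPM in controls (log2 difference 0.34, SE 0.22), and its partner Sel1l had 29.6 TPM ± 7.22 against 26.3 TPM ± 0.673 (0.14, SE 0.19). Both overlapped between the genotypes. Vcp, the ATPase, had 124 TPM ± 6.64 against 127 TPM ± 11.0. Selenos, which tethers VCP to the derlins, had 60.5, 73.7 and 56.4 TPM in Alb-Cre+ mice and 75.8, 78.5 and 89.7 TPM in controls, a log2 difference of -0.36 (SE 0.14, unadjusted p = 0.0387 and adjusted p = 1.00 by limma). Herpud1, which organizes the SYVN1 complex, had 327 TPM ± 11.1 in Alb-Cre+ mice and 343, 417 and 614 TPM in controls, without overlap (-0.45, SE 0.21).

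The rhomboid relatives of the derlins gave no gene past an unadjusted p of 0.05 in limma, with 3 positive and 6 negative among the 9 tested. With the replicate block there was 1, Rhbdl1, at 0.631 against 0.343 TPM, a gene named after its values were seen. The block counted 2.28% of all genes tested as higher at that threshold. Rhbdd1, an ER rhomboid protease that also takes part in ERAD, had 7.01 TPM ± 1.27 against 6.69 TPM ± 1.16. The pseudoprotease Rhbdf1 had 1.77, 5.38 and 3.03 TPM against 1.89, 3.24 and 1.46 TPM. Rhbdd2 and Rhbdd3, the relatives with the smallest p among the lower genes, had log2 differences of -0.16 (SE 0.23) and -0.19 (SE 0.16).

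The XBP1 and ATF6 targets were the list with the most positive differences, 22 of 29, and a median of 0.16. Limma gave 3 of them an unadjusted p under 0.05, all higher in Alb-Cre+ mice against 0.803% of all genes (5 with the replicate block, against 2.28%), and 0 passed an adjusted p of 0.01. Sdf2l1, a cofactor of the chaperone cycle, had 35.5, 39.1 and 26.6 TPM in Alb-Cre+ mice and 20.6, 12.4 and 24.3 TPM in controls, without overlap (log2 difference 0.85, SE 0.28, unadjusted p = 0.0172 by limma). Ero1b had the smallest unadjusted p of the list, 0.00777 by limma, for a log2 difference of 0.69 (SE 0.19). Hspa5, the main ER chaperone BiP, had 452, 627 and 346 TPM in Alb-Cre+ mice and 343, 359 and 321 TPM in controls, so Alb-Cre+ replicate 3 fell within the controls (0.44, SE 0.22). Xbp1 itself had 94.8, 199.5 and 76.4 TPM against 100.7, 107.4 and 96.3 TPM. Of the 7 targets with a negative difference, Herpud1 had the smallest p and Ssr1, a subunit of the translocon-associated complex, the second (log2 difference -0.11, SE 0.21). The values for Xbp1 cover all its transcripts and do not tell the spliced form from the unspliced form.

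The order of the Alb-Cre+ mice by Derl3 was not their order by Hspa5 and Xbp1. Only 3 mice are ordered here, replicate 2 being the female, and a cause was not tested. Derl3 was highest in replicate 3, whereas Hspa5 and Xbp1 were highest in replicate 2 and lowest in replicate 3. The correlation of Derl3 with Hspa5, taken over the deviations of the 6 mice from their genotype means, was -0.74, and with Xbp1 it was -0.57.

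Sensors and transcription factors of the unfolded protein response were balanced, with 6 positive and 6 negative of 12 tested, a median of -0.01 and none under an unadjusted p of 0.05 in limma. With the replicate block there was 1, Creb3l3, against 2.28% of all genes counted as higher. This liver factor, which is activated by cleavage (CREBH), had 252, 274 and 210 TPM against 221, 211 and 183 TPM (log2 difference 0.26, SE 0.15). Its relative Creb3 had -0.20 (SE 0.17). Ern1, which encodes the sensor IRE1 that splices Xbp1 mRNA, had 6.26, 10.6 and 4.50 TPM against 5.19, 5.45 and 4.62 TPM. Atf6 had 13.8 TPM ± 5.93 against 13.6 TPM ± 2.05, and Eif2ak3, the gene of the sensor PERK, had 5.08 TPM ± 3.25 against 6.21 TPM ± 3.88. Among the PERK and ATF4 targets, 4 differences were positive and 9 negative (median -0.22). Limma gave 2 of them an unadjusted p under 0.05, both lower in Alb-Cre+ mice, against 0.958% of all genes. These were Asns, asparagine synthetase (log2 difference -1.44, SE 0.60), and Ddit4, an inhibitor of mTORC1 (-1.07, SE 0.44), and each was highest in control replicate 3. With the replicate block neither was under 0.05 (unadjusted p = 0.0737 and 0.0621 by limma), while Chac1, named after its values were seen, was (1.40 against 2.75 TPM). Among all genes tested, 2.42% were lower at that threshold with the block. The higher genes of this list with the smallest p were Psat1 (log2 difference 0.35, SE 0.70) and Vldlr (0.19, SE 0.81).

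**Figure D4:**
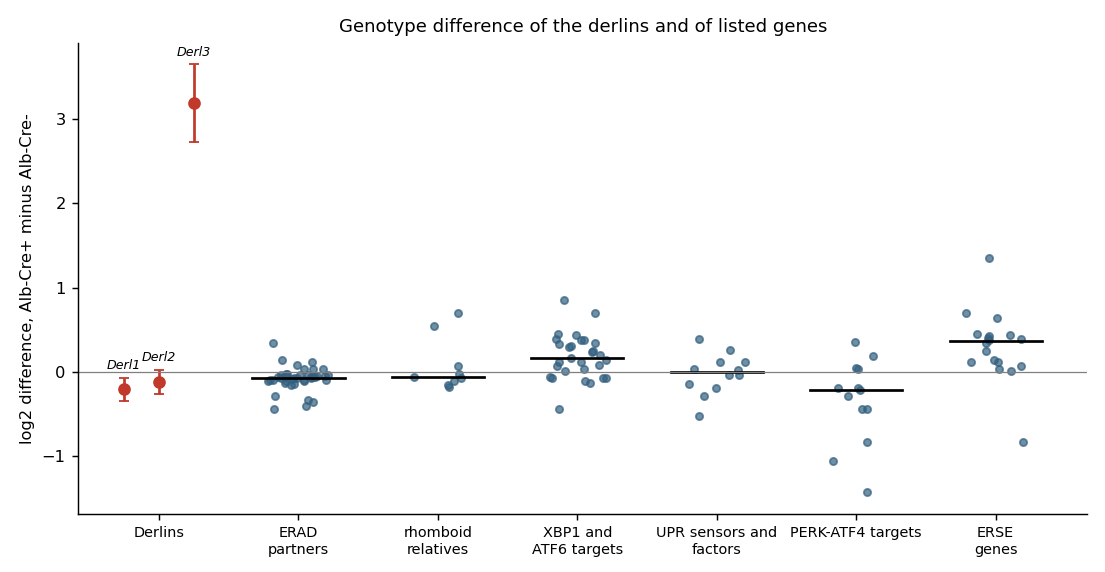
Genotype difference on the scale of log2(TPM + 0.1), Alb-Cre+ minus Alb-Cre- (vertical axis), for the 3 derlins (red, with standard error bars) and for each tested gene of the 5 lists and the 18 other ERSE genes (blue points, with black lines at the medians). Derl3 at 3.19 lies above every listed gene, and the median is -0.07 for ERAD partners, 0.16 for XBP1 and ATF6 targets and 0.36 for ERSE genes.

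Markers of other cell types that could bring Derl3 into liver RNA were compared in the same mice. Of 17 plasma cell and B cell markers, 6 had a mean of at least 1 TPM. The sum of all 17 was 122 to 154 TPM in Alb-Cre+ mice and 131 to 163 TPM in controls. Most of it was Sdc1, which hepatocytes also express. Of 13 pancreatic acinar markers, Prss2, Cpa1, Cela3b, Pnlip and Cel were listed at 0 in all 6 mice, and the sum, 18.1 to 22.7 TPM against 17.6 to 22.7 TPM, was nearly all Cela1. The ranges of the genotypes overlapped for Kupffer cells (220 to 797 TPM against 276 to 744 TPM), sinusoidal endothelium (115 to 247 TPM against 146 to 224 TPM), stellate cells (101 to 209 TPM against 75.9 to 216 TPM) and cholangiocytes (23.3 to 39.2 TPM against 15.02 to 59.2 TPM). Hepatocyte markers, of which 7 of 8 were in the table, exceeded all of these at 59633 to 88614 TPM. Apoa1 carried most of the genotype gap in their sum, with 9601 TPM ± 726 (SD, n = 3) in Alb-Cre+ mice and 18071 TPM ± 2572 in controls, and Ttr was also lower without overlap (3867 against 4973 TPM), while Cps1 (951 against 835 TPM), Hnf4a (291 against 273 TPM) and Alb (49193 against 50976 TPM) overlapped.

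The genes with the pattern most like each derlin were taken by Pearson correlation over the 6 mice among 10634 genes that averaged 1 TPM or more. For Derl3 they were Ftl1-ps1 (r = 0.98), Sdhaf1, Kpna2, H2bc12 and Gm2539 (r = 0.94 to 0.93). All 5 had Alb-Cre+ values above the controls, but of unequal size. As Derl3 separates the genotypes and the genes were chosen for likeness to it, that separation follows largely from the choice. H2bc12, a histone H2B gene, had 2.08, 2.50 and 3.24 TPM against 0.287, 0.208 and 0 TPM, whereas Kpna2, an importin, had 39.2 to 40.0 TPM against 36.5 to 37.6 TPM. H2bc12 reached the mean of 1 TPM only through the Alb-Cre+ mice. Ftl1-ps1 is annotated as a pseudogene and may share reads with its parent gene. For the deviations from the genotype means, Ftl1-ps1 again came first (r = 0.98), followed by Sms-ps, Ugt1a6b, Dpt and Car1.

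For Derl1 the 5 genes most alike over the 6 mice were Ppp2r5a (r = 0.99), Nrbf2, Acsl5, Trp53inp2 and Prrc1, and for the deviations they were C1qtnf5, Stab2, Erich1, Ppp2r5a and Tbrg1. For Derl2 they were Sult1d1 (r = 0.98), Dhx40, Rap1gap, Gas2 and Farp2 over the 6 mice, and Rap1gap, Naa16, Sult1d1, Xkr8 and Canx for the deviations. Sult1d1, a sulfotransferase, had 158 to 173 TPM in Alb-Cre+ mice and 169.7, 143.5 and 245.9 TPM in controls, with the same high value in control replicate 3 that Derl2 showed. With 6 libraries and this many genes compared, values of this size describe the mice at hand and carry no test.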

How the data were processed

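Liver RNA of 6 mice was sequenced, and the authors deposited TPM for each transcript and mouse, adding up to 1000000 per mouse, for the GRCm38 genome. The methods name STAR and RSEM, the table is labelled salmon, and versions are not given in the sources used here. The authors also deposited their DESeq2 comparison, from which the mean normalized count (a signal pooled over all mice) is quoted. The log2 fold changes with standard errors, Wald scores and p-values that the authors deposited there were not used. No read counts per mouse were used here.

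TPM were summed by symbol, leaving out 163 transcripts without one, and genes averaging 0.1 TPM or more were fitted by limma 3.58.1 (R 4.3.3, genotype as the only factor, trend) on log2(TPM + 0.1), with Benjamini-Hochberg adjustment over all of them and a threshold of 0.01. The scripts were tested on simulated data. Fold values on this scale understate changes of low genes. The members, lists and tests were chosen with earlier results of these data known. Named genes were the members with all their transcripts, the 2 smallest p in each direction of each pathway list and of the hepatocyte markers among genes with at least 1 TPM (those of the other marker lists are given as sums), 10 pathway genes fixed by name, the 5 genes most like each member and the 3 nearest coding genes on each side; Acacb, Hsp90b1, Pdia6, Acnat2, Alb, Alg12, Chac1, Creld2, Rhbdl1, Serpina1a, Xlr3a, Xlr3b and Zfp57 were named after their values were seen. Mice with the same replicate number deviated together from their genotype means (r = 0.37, 0.59 and 0.37 across genes), so the numbers were taken to pair the mice. Mice with unlike numbers had r of -0.44 to 0.17. As deviations from a mean cancel out within each genotype, these values are tied to the others and are no separate evidence. All of them come from the values to which the block was fitted. The labels do not state a pairing, and the mice with r = 0.59 were the females. Alternatives were other pseudocounts, filters and scaling, each mouse left out, a replicate block, sex as a covariate, no trend, a threshold of 0.05 and the most abundant transcript alone. Exons are from GENCODE M21; all 17 derlin transcripts have other version numbers there. P-values set a difference against the spread between these mice, which limma moderates over all genes tested.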

Additional observations from a re-analysis of the deposited data

How the results depend on the processing

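TPM as deposited cannot show counting error, and 3 mice per genotype limit every comparison. The Derl3 difference kept its direction in all 18 alternatives and became 2.34 with a pseudocount of 1 TPM, as that setting compresses low values. The filters, trend and threshold do not enter this value. In this balanced design the block and the sex covariate cannot move it either. It was therefore fixed at 3.19 in those settings, and the rule that chose Derl3 used the same contrast. The differences of Derl1 (-0.33 to -0.12), Derl2 (-0.22 to 0.011) and the family sum (-0.099 to -0.040) are ranges over omissions of a single mouse. Genes called between the genotypes numbered 0 to 1 over those omissions, the 1 being Gm10240 without Alb-Cre+ replicate 1, and 0 in the other alternatives; each list stayed at 0. At an unadjusted p under 0.05, the main 114 higher and 136 lower genes became 232 and 210 without the filter (more genes tested), 260 and 271 with sex as a covariate, 69 and 114 without Alb-Cre+ replicate 1, 109 and 397 without Alb-Cre+ replicate 2, 182 and 85 without Alb-Cre+ replicate 3, and 61 and 136 without Alb-Cre- replicate 3. The median of all genes was -0.12 without Alb-Cre+ replicate 2 and 0.11 without Alb-Cre+ replicate 3. For these shifts the cause was not tested.

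With the replicate block, the Derl3 difference stayed 3.19 (SE 0.45) and 0 genes were called; at an unadjusted p under 0.05 there were 323 higher and 343 lower genes, or 379 and 396 when the block was combined with median-of-ratios scaling. That combination, and leaving out replicate 3 of each genotype (Derl3 2.81, Derl2 0.04), were chosen after seeing the data. The block changed no other call.

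The sex difference of Derl1 turned to -0.070 under median-of-ratios scaling. That of Derl2 ranged from -0.30 to 0.11 over omissions of a single mouse and was 0.00426 without Alb-Cre- replicate 3, and that of Derl3 ranged from -0.81 to -0.24. The Derl2 minus Derl1 difference ranged from -0.090 to 0.085 over such omissions. It was -1.21 (exact permutation p = 0.03125, the smallest possible) when only the most abundant transcript of each gene was taken, which by construction drops the other coding transcripts of Derl2.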

Other observations

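The genes next to the derlins were read as a further description of the 3 loci, taking the 3 nearest protein-coding genes on each side. Of these 18 neighbours 13 were tested, 3 had an unadjusted p under 0.05 in limma and 0 passed an adjusted p of 0.01. Among all genes tested, limma counted 0.803% as higher and 0.958% as lower at the unadjusted threshold. Next to Derl3, Smarcb1, a subunit of the SWI/SNF complex whose 3′ end lies 828 bases beyond Derl3 on the other strand, had 9.13 TPM ± 3.51 (SD, n = 3) in Alb-Cre+ mice and 8.92 TPM ± 1.60 in controls. On the other side Mif, a cytokine gene, had 515, 499 and 505 TPM against 401.5, 447.8 and 412.5 TPM (log2 difference 0.27, unadjusted p = 0.0489 by limma), and Gstt2, a glutathione transferase, had 130.7, 108.5 and 90.7 TPM against 88.1, 81.5 and 81.9 TPM (0.38, unadjusted p = 0.0434 by limma). In both genes all Alb-Cre+ values lay above the controls, as in 2.18% of all genes tested. Mmp11 (-0.10) and Chchd10 (0.03) overlapped, and Gstt4 was listed at 0 in all mice.

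Among the neighbours of Derl1, Fam83a had the third of these p-values (log2 difference -1.59, unadjusted p = 0.0140 by limma). It had 0.0352, 0.127 and 0.0373 TPM in Alb-Cre+ mice and 0.769, 0.194 and 0.348 TPM in controls. Its means were 0.0666 and 0.437 TPM, so it passed the filter of 0.1 TPM only through the controls. Tbc1d31 had 1.22 TPM ± 0.101 in Alb-Cre+ mice against 1.80 TPM ± 0.413 in controls (-0.50). The 4 tested neighbours of Derl2 differed by -0.09 to 0.13.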
